A study of Mus musculus with 6 samples.

Results

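The 10 genes described here encode cytokines by which stromal cells of the bone marrow support blood progenitors: Kitl, Csf1, Csf2, Csf3, Il6, Il7, Il11, Lif, Thpo and Flt3l. They were chosen by symbol from the 23420 genes of the count table, and all 10 were listed there. The RNA came from mesenchymal stromal cells (MSCs), the adherent cells grown from the femoral marrow of young female C57BL/6 mice. In 3 libraries (Ctl MSC) the cells had been transduced with the empty retroviral construct, which carries eGFP, and in 3 libraries (MSC-TPr) with the same construct coding for the thymoproteasome subunits Psmb9, Psmb10 and Psmb11. All cells were expanded as adherent cultures before transduction, no selection of single clones is described, and the sources used here do not state whether the libraries of a group came from separate cultures or animals, so p-values measure the spread between these libraries, which may be technical.

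In the marrow niche, stem and progenitor cells depend on short-range signals from the stroma. Stem cell factor (Kitl) binds the Kit receptor and keeps haematopoietic stem cells alive, M-CSF (Csf1) drives monocytes and macrophages, and Flt3 ligand (Flt3l) and thrombopoietin (Thpo) act on early progenitors, dendritic cells and megakaryocytes. Il7 feeds early lymphocytes, GM-CSF (Csf2) and G-CSF (Csf3) raise granulocytes and macrophages, and Il6, Il11 and Lif share the signalling chain gp130 (Il6st). Several of these messages are known to be short-lived because of AU-rich elements in their 3′ untranslated regions, and several of the genes are known to be induced by inflammatory stimuli.

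Kitl and Csf1 are shown by their promoter because they held nearly all reads of the group, and Lif and Il6 because their fitted differences between the labels were the largest of the 6 genes tested. The sequences are RefSeq windows (GRCm38.p6, the build also called mm10) from 250 bases before to 50 bases after the gene start. Capitals mark matches on either strand to the NF-kappaB consensus of 10 bases, TGANTCA (AP-1), TTGCNNAA (C/EBP), TATAAA or GGGCGG (GC box).
Kitl, chr10:100015571-100015870, plus strand: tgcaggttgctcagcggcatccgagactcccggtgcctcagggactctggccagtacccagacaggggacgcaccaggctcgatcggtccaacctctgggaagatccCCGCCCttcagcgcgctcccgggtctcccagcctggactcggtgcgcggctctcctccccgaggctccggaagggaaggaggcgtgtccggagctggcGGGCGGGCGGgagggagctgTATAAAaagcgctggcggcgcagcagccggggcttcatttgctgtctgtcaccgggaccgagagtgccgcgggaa
Csf1, chr3:107760420-107760719, minus strand: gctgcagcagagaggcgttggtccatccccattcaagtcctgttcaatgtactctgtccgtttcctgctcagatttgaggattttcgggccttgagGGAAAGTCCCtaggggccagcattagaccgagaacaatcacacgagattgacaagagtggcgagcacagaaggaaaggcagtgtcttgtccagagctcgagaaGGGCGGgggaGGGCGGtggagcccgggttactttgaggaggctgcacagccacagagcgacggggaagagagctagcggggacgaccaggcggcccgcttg
Lif, chr11:4257318-4257617, plus strand: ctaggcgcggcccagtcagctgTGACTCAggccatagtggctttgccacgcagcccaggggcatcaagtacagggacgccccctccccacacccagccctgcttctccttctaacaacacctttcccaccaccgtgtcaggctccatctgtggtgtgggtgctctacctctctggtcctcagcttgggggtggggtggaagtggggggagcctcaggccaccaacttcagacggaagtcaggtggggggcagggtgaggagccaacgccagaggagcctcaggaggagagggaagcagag
Il6, chr5:30012864-30013163, plus strand: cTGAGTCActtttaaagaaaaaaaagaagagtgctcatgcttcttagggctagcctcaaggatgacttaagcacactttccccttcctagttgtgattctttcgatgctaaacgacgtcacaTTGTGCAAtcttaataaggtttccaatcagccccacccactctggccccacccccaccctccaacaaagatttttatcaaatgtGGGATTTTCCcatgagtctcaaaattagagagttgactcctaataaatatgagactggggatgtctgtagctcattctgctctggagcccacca

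G and C made up 68.7% of the Kitl window, 63.7% of that of Lif, 58.7% of that of Csf1 and 44% of that of Il6, an order that was not that of their levels. The TATAAA of Kitl began at base −25 from the RefSeq start, and 13.6% of all 32851 RefSeq promoter windows of this length held this motif. The NF-kappaB letters stood at −44 in Il6 and, on the other strand, at −154 in Csf1, against 0.411% of all windows. AP-1 letters were found at −249 in Il6 and at −228 in Lif, in the second RefSeq window of Il11 as well, and in 7.81% of all windows. GGGCGG, held by 35.7% of windows, occurred in Kitl and Csf1 and not in the windows of Lif and Il6; 2 of the Kitl matches overlap. TTGCNNAA, found at −128 in Il6, was held by 10.8% of windows, and TGACGTCA (1.79%), TTCNNNGAA (8.3%) and the shorter NF-kappaB form GGGANTTCC (1.68%) were searched on both strands with no match in the windows of these 4 genes. These matches describe letters in 1 window per gene start and say nothing of binding.

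The 3′ untranslated regions differed in the pentamer ATTTA, the core of AU-rich elements. Of 20831 coding genes with a 3′ untranslated region in the mm10 annotation (longest per gene), 65.7% held at least 1 pentamer, as did 8 of the 10 cytokine genes; Thpo and Flt3l had none. Csf2 held 9 in 317 bases, or 28.4 per kilobase, a density above that of 99.9% of genes. Csf3 (8.97 per kilobase), Il11 (8.38) and Il6 (6 per kilobase) lay above 98.5%, 98.1% and 95.2% of genes. Densities were lower in Kitl (3.16 per kilobase), Lif (2.2), Csf1 (1.89) and Il7 (1.56), against a median of 1.26 over all genes. The stretch of 30 bases with most pentamers is given for Csf2 and Csf3, the densest genes, and for Il6, Lif, Kitl and Csf1, whose promoters are shown above, with the pentamers in capitals.
Csf2, chr11:54247324-54247353, minus strand: aaatATTTATTTATTTATTTATTTAttttt
Csf3, chr11:98702995-98703024, plus strand: tatctctATTTAatATTTAtgcatATTTAa
Il6, chr5:30019677-30019706, plus strand: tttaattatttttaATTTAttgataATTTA
Lif, chr11:4272414-4272443, plus strand: ATTTAttcaatgtcatATTTAaaatATTTA
Kitl, chr10:100097942-100097971, plus strand: ttgtgacttgATTTATTTAtctggtagttt
Csf1, chr3:107741102-107741131, minus strand: aaggtcATTTAaatatctATTTAaaaaata

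The reads assigned to genes numbered 16158756 to 22158887 by library, so that 3 reads, taken as the lowest detectable amount, were 0.139 to 0.181 CPM (counts scaled to a library of 1000000 reads by the TMM method; this limit covers counting error only). Libraries did not sort by label on the first principal component (60.6% of the variance): Ctl MSC 1 lay with MSC-TPr 2 and 3, and MSC-TPr 1 with Ctl MSC 2 and 3. The mean log2 level of 10 cell division genes was 6.68 to 6.85 in the first of these sets and 3.44 to 3.52 in the second. Psmb10 spanned 8.38 to 27.8 CPM among Ctl MSC against 8.96 to 17.3 CPM among MSC-TPr, Psmb9 0.801 to 3.38 against 0.553 to 1.24 CPM, and Psmb11 at most 0.355 CPM in any library, so no transduced gene set the labels apart. Whether the labels of Ctl MSC 1 and MSC-TPr 1 are as given was not settled by these values, which bears on every fold change over all 6 libraries, so every direction below is one between library labels. For 22.6% of all genes tested the groups did not overlap, so these kept the order of the labels in the libraries numbered 1 too. Nt5e and Il11ra1 were among them and are picked here for that, so nothing about the labels is read from these genes. Fold changes, intervals and counts of genes past the edgeR call limits are also given over the 4 libraries numbered 2 and 3. They are descriptions and are not read as tests. The pair left out was chosen because of its place among the other libraries, and in the 4 kept the label cannot be told apart from cell division (3.48 and 3.44 in Ctl MSC, 6.68 and 6.70 in MSC-TPr). Of the MSC surface markers, Cd44, Eng and Itgb1 were abundant in all libraries, while Thy1 (CD90) reached at most 0.0604 CPM. Nt5e (CD73) had 11.4, 20.2 and 17.4 CPM (Ctl MSC 1 to 3) against 2.66, 4.2 and 5.24 CPM (MSC-TPr 1 to 3), with groups apart and a log2 fold change of −2.02 (edgeR adjusted p = 0.079; DESeq2 adjusted p = 2.03e-05). Of 10 haematopoietic markers in the table, 9 stayed under 1 CPM in all libraries, among them Ptprc (CD45) and Itgam, and the list summed to 3.14 to 10.2 CPM in Ctl MSC and 1.99 to 14.3 CPM in MSC-TPr; Cd68 alone spanned 0.788 to 14.2 CPM. Endothelial markers summed to 1.27 to 6.19 and 2.41 to 24.7 CPM, with 5 of 7 under 1 CPM in all libraries, Pecam1 and Cdh5 among them; Kdr reached 2.99 CPM, and Vwf had 21.4 CPM in MSC-TPr 1 and at most 3.36 CPM elsewhere. In such bulk RNA, fewer cells that express a gene and less RNA per cell cannot be told apart.

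Csf1 and Kitl were the leading cytokine messages of these cells. Together they took 98.58% to 99.43% of the reads on the 10 genes in each library, and the 10 genes took 0.0974% to 0.157% of all reads on genes. Lif, Flt3l, Il7 and Il6 were low but passed the filter on counts, Il11 and Thpo were read in all 6 libraries without passing it, and Csf2 and Csf3 had 1 read each over all 6 libraries. Csf2 was read in Ctl MSC 2 and Csf3 in MSC-TPr 3, both under the limit of 3 reads, so neither was detectable at this depth.

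**Figure D1:**
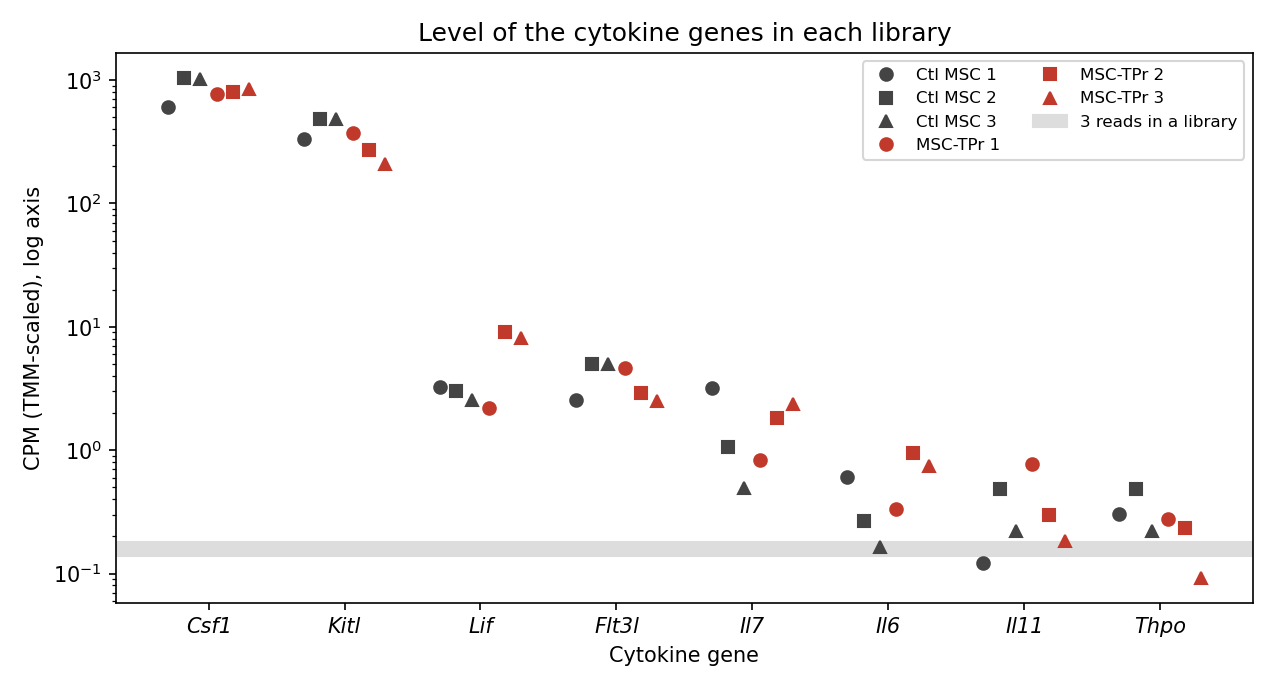
Level of 8 cytokine genes in each library, in CPM on a log axis (black, Ctl MSC; red, MSC-TPr; the symbol gives the library number; grey band, 3 reads). Csf1 (609 to 1040 CPM) and Kitl (208 to 485 CPM) stand apart from the other genes in every library; Csf2 and Csf3, with 1 read each, are not drawn.

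Per kilobase of exons the order was the same in both labels for the leading pair. Csf1 had 168 ± 45.8 CPM per kilobase in Ctl MSC and 152 ± 7.49 in MSC-TPr (SD, n = 3 each). Kitl had 73.2 ± 14.9 in Ctl MSC and 48.3 ± 14.2 in MSC-TPr. The lowest library of Csf1, at 115 CPM per kilobase, lay above the highest of Kitl, at 82.1. The next pair, Lif (mean over 6 libraries 1.09, SD 0.707) and Flt3l (0.97, SD 0.319), did not differ beyond their spread. Every library of Flt3l lay above every library of Il7, and neighbours among Il7 (0.288, SD 0.182), Il6 (0.21, SD 0.125), Il11 (0.166, SD 0.117) and Thpo (0.102, SD 0.0482) overlapped. The step from Kitl to Lif was the widest gap in the order: the lowest library of Kitl, at 35.2 CPM per kilobase, stood against 2.11 in the highest of Lif. Exon lengths are the union over all annotated transcripts, which understates the level of a gene whose shorter forms dominate.

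**Figure D2:**
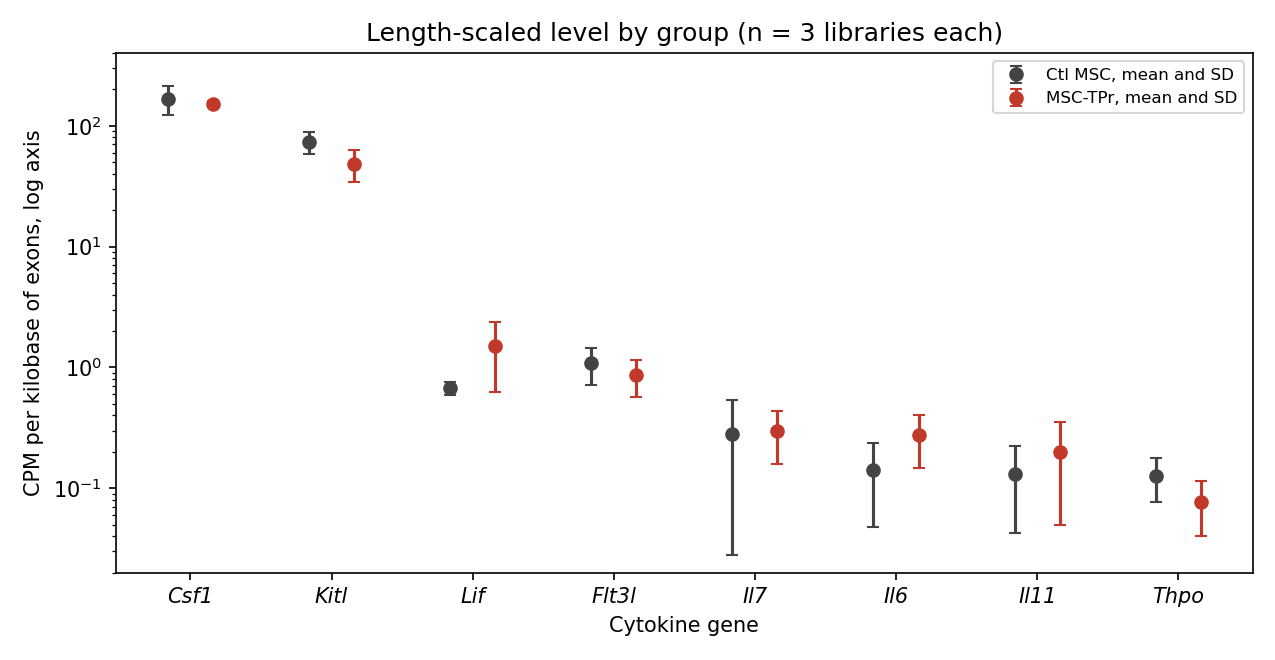
Mean level per kilobase of exons with SD (n = 3 libraries per group) on a log axis, genes ordered by their mean over 6 libraries. Csf1 and Kitl hold the top places in both labels, and from Il7 to Thpo the error bars of neighbours overlap.

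The balance between the macrophage factor and the stem cell factor was also followed. The length-scaled ratio of Csf1 to Kitl was 2.06, 2.42 and 2.34 (Ctl MSC 1 to 3) against 2.29, 3.25 and 4.55 (MSC-TPr 1 to 3). MSC-TPr 2 and 3 exceeded every Ctl MSC library, while MSC-TPr 1 lay within their range. The mean log2 ratio differed by 0.51, with overlapping groups (exact two-sided permutation test over libraries, p = 0.3, n = 3 each; the smallest p this design allows is 0.1, so the test could not pass 0.05).

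Kitl (chromosome 10 of mm10, 100015630 to 100100416, plus strand) encodes stem cell factor. It had 331, 482 and 485 CPM (Ctl MSC 1 to 3) against 375, 273 and 208 CPM (MSC-TPr 1 to 3). MSC-TPr 2 and 3 lay below all Ctl MSC libraries, but MSC-TPr 1 lay above Ctl MSC 1, so the groups overlapped. Over all 6 libraries the log2 fold change was −0.60 (95% interval −1.25 to 0.05, edgeR adjusted p = 0.363). Over the 4 libraries numbered 2 and 3 it was −1.00.

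Csf1 (chromosome 3, 107741048 to 107760469, minus strand), the growth factor of macrophages, had 609, 1040 and 1014 CPM (Ctl MSC 1 to 3) against 767, 795 and 845 CPM (MSC-TPr 1 to 3). The MSC-TPr values lay close together between the low Ctl MSC 1 and the high Ctl MSC 2 and 3. Its log2 fold change was −0.15 over all 6 libraries (95% interval −0.72 to 0.43, edgeR adjusted p = 0.819) and −0.32 over the 4.

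Flt3l (chromosome 7, 45129788 to 45136432, minus strand), a factor for dendritic cell precursors, had 2.54, 4.96 and 5.02 CPM (Ctl MSC 1 to 3) against 4.65, 2.9 and 2.5 CPM (MSC-TPr 1 to 3), from 42 to 93 reads. Its values fell into a set near 5 CPM and a set below 3 CPM, and each set held libraries of both labels. All 6 libraries gave −0.32 on the log2 scale (edgeR adjusted p = 0.754) and the 4 gave −0.89. Its exons overlap those of Gm45713 on its own strand, which leaves the count uncertain.

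Lif (chromosome 11, 4257557 to 4272514, plus strand) encodes leukaemia inhibitory factor, a gp130 cytokine. It had 3.26, 3.04 and 2.54 CPM in Ctl MSC 1, 2 and 3, from 46 to 57 reads. The MSC-TPr libraries had 2.21, 9.16 and 8.11 CPM, from 40, 155 and 175 reads. MSC-TPr 2 and 3 were thus above every other library, and MSC-TPr 1 was the lowest of all. The log2 fold change was 1.14 over all 6 libraries (95% interval −0.11 to 2.39, edgeR adjusted p = 0.369) and 1.63 over the 4.

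Il6 (chromosome 5, 30013114 to 30019981, plus strand), the inflammatory cytokine of the same gp130 group, was counted at 10, 5 and 3 reads (Ctl MSC 1 to 3) against 6, 16 and 16 (MSC-TPr 1 to 3). These were 0.604, 0.267 and 0.165 CPM against 0.332, 0.946 and 0.742 CPM. The exact 95% Poisson interval of Ctl MSC 1 (0.29 to 1.11 CPM) overlaps those of MSC-TPr 2 (0.541 to 1.54 CPM) and MSC-TPr 3 (0.424 to 1.2 CPM), while Ctl MSC 3 reached at most 0.483 CPM. Il6 passed the filter with 10 or more reads in 3 libraries, Ctl MSC 1 and MSC-TPr 2 and 3, so among the 4 numbered 2 and 3 it did so through MSC-TPr alone, where it was high. The fitted log2 fold change was 0.96 over all 6 libraries (95% interval −0.57 to 2.50, edgeR adjusted p = 0.529) and 1.92 over the 4. Il11 (chromosome 7, 4772373 to 4782859, minus strand) had 2, 9 and 4 reads (Ctl MSC 1 to 3) against 14, 5 and 4 (MSC-TPr 1 to 3), with overlapping groups, its highest library being MSC-TPr 1.

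Il7 (chromosome 3, 7569994 to 7613760, minus strand), the lymphoid factor, had 3.2, 1.07 and 0.496 CPM (Ctl MSC 1 to 3) against 0.83, 1.83 and 2.36 CPM (MSC-TPr 1 to 3), from 9 to 53 reads. Ctl MSC 1 was the highest of all 6 libraries and Ctl MSC 3 the lowest. The log2 fold change was 0.09 over all 6 (95% interval −1.65 to 1.83, edgeR adjusted p = 0.968) and 1.42 over the 4. Thpo (chromosome 16, 20724454 to 20734511, minus strand), made mainly by the liver, had 5, 9 and 4 reads (Ctl MSC 1 to 3) against 5, 4 and 2 (MSC-TPr 1 to 3). Exons of Il7 overlap Gm16685 and those of Thpo overlap Chrd on the opposite strand, and whether the counting used strand is not given in the sources used here, so both counts are uncertain.

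Most of these genes differed in level between the libraries with high and low cell division. These are the 2 sets parted by the first principal component (60.6% of the variance). The share of all genes that kept such an order was not counted, so nothing particular to the cytokine genes is read from it. In the libraries with the high division level (Ctl MSC 1, MSC-TPr 2 and MSC-TPr 3), Flt3l was 2.5 to 2.9 CPM, against 4.65 to 5.02 CPM in the other 3. Kitl was 208 to 331 CPM against 375 to 485 CPM, Il7 was 1.83 to 3.2 CPM against 0.496 to 1.07 CPM, and Il6 was 0.604 to 0.946 CPM against 0.165 to 0.332 CPM. Il6 reached 10 reads only in the libraries with high division, and passed the filter through them alone. Its split and its correlation given below were thus favoured in advance. The Poisson interval of Ctl MSC 1 for Il6 (0.29 to 1.11 CPM) also overlaps that of MSC-TPr 1 (0.122 to 0.723 CPM). Lif kept the order of the 2 sets only by a narrow margin, since Ctl MSC 1 (3.26 CPM) lay just above Ctl MSC 2 (3.04 CPM). Csf1 did not keep it, with MSC-TPr 1 (767 CPM) between Ctl MSC 1 (609 CPM) and MSC-TPr 3 (845 CPM). Pearson correlations of log2 level with the mean of the cell division genes over the 6 libraries were −0.99 for Flt3l, −0.84 for Kitl, −0.65 for Csf1, 0.77 for Lif and 0.92 for both Il6 and Il7; the points share their libraries and scaling, and the libraries form 2 sets, so these describe the order and carry no p. With the division level as a covariate in the fit, the log2 fold change of Kitl was −0.42 (edgeR adjusted p = 0.0865), that of Lif 0.63 (adjusted p = 0.327) and that of Il6 0.55 (adjusted p = 0.408), and no cytokine gene was called, while 12.0% of all genes tested were.

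**Figure D3:**
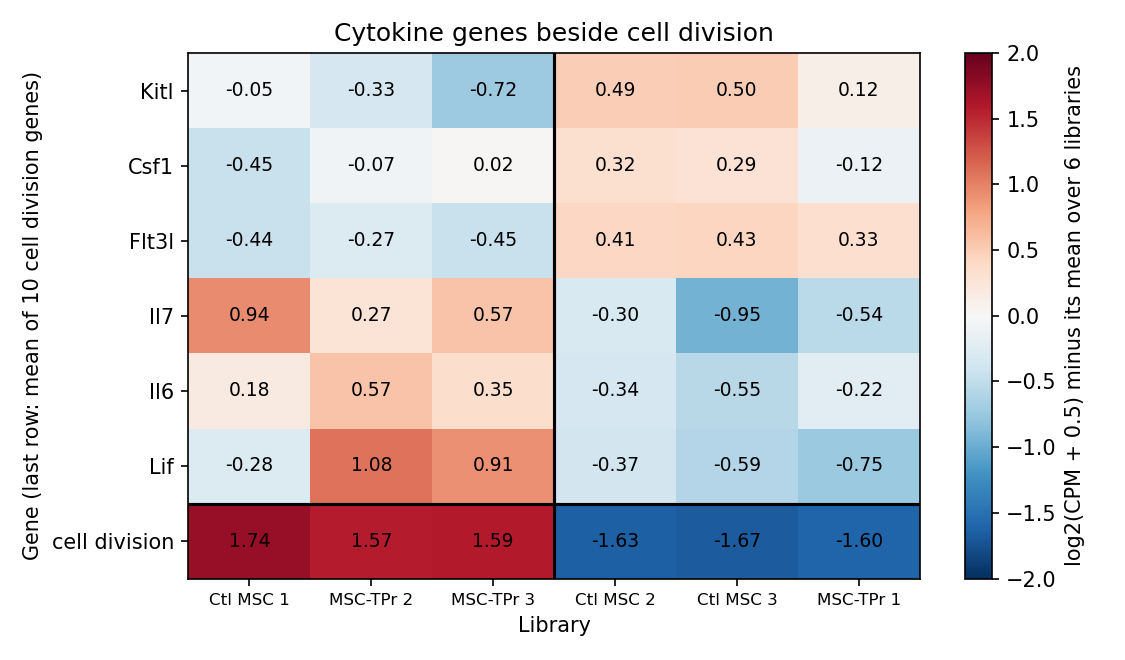
Each cell is log2(CPM + 0.5) of a gene in a library minus its mean over the 6 libraries, with the mean of 10 cell division genes in the last line; the upright line parts the libraries with high and low division. Flt3l, Kitl, Il7, Il6 and Lif keep their order across that line, and Csf1 does not. The share of all genes that do so was not counted, and Il6 passed the count filter through the high-division libraries alone. Lif is raised in MSC-TPr 2 (1.08) and MSC-TPr 3 (0.91), while Ctl MSC 1 (−0.28) lies just above Ctl MSC 2 (−0.37).

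Over all 6 libraries, 0 of the 6 cytokine genes that passed the filter were called between the labels (edgeR adjusted p under 0.05, with an absolute log2 difference no smaller than 0.5), where 0.426% of all 11974 genes tested were called. None of the 6 had an unadjusted p under 0.05 (15.0% of all genes did), and 0 of the 6 had groups that did not overlap (22.6% of all genes). DESeq2 called none of the members to which it gave an adjusted p, and 5.31% of all such genes. The median log2 fold change of the 6 was −0.03, against 0.01 over all genes.

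In the 4 libraries numbered 2 and 3, where label and cell division coincide, 5 of the 6 were past the call limits, Lif, Il6 and Il7 higher and Kitl and Flt3l lower in MSC-TPr, as were 40.0% of all 12122 genes (20.6% higher and 19.4% lower); the common dispersion was 0.0168, against 0.124 over all 6, and nothing particular to the cytokine genes is read from the count. The pair left out, MSC-TPr 1 and Ctl MSC 1, differed in the opposite direction for each of these 5 genes, with log2 differences of 0.18 for Kitl, 0.76 for Flt3l, −0.47 for Lif, −0.41 for Il6 and −1.48 for Il7. Of all 4854 genes past the limits in the 4 libraries, 29.8% had the same direction in this pair. Each library of the pair stands alone, so its differences have no replicate check.

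**Figure D4:**
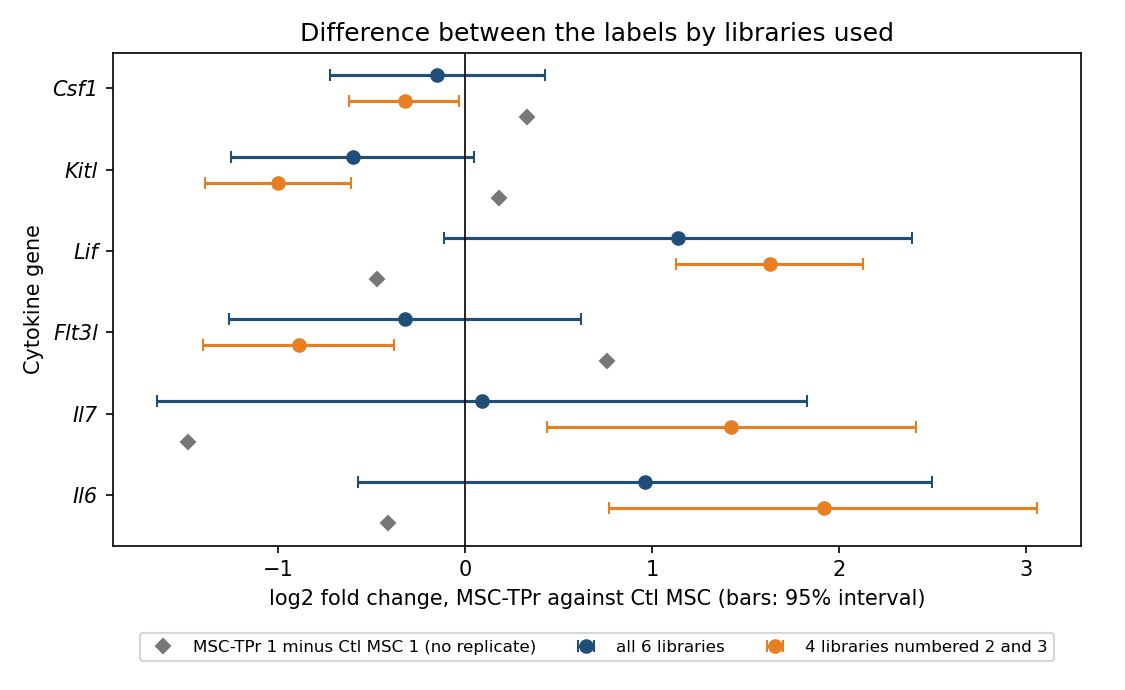
Log2 fold change of MSC-TPr against Ctl MSC for the 6 tested cytokine genes with 95% intervals, over all 6 libraries (blue) and over the 4 numbered 2 and 3 (orange); grey diamonds give MSC-TPr 1 minus Ctl MSC 1 on the log2(CPM + 0.5) scale. Every blue interval includes 0, the orange intervals come from libraries chosen after their values were seen and serve no test, and each diamond lies on the other side of 0 from its orange point.

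Receptors for these cytokines were read mostly for the gp130 group. Kit, which binds Kitl on blood cells, had no read in any library. Flt3, Csf3r, Il7r, Il2rg and Csf2rb2 stayed at or below 0.296 CPM, and Csf2rb at or below 0.966 CPM. Of the 14 receptor genes, 6 passed the filter, and none was called over all 6 libraries, but the groups did not overlap for 5 of them, where 22.6% of all genes tested did not. Il6ra and Lifr were higher in every MSC-TPr library (10.6% of all genes were) and Il6st, Il11ra1 and Csf2ra lower (12.1%). The median log2 fold change of the 6 was −0.07.

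Il11ra1, the binding chain for Il11, had 17.1, 19.2 and 19.6 CPM (Ctl MSC 1 to 3) against 9.63, 7.86 and 8.9 CPM (MSC-TPr 1 to 3). Every MSC-TPr library lay well below every Ctl MSC library, in the libraries numbered 1 too. Its log2 fold change was −1.08 over all 6 libraries (95% interval −1.53 to −0.63, edgeR adjusted p = 0.0774) and −1.20 over the 4, and DESeq2 called it over all 6 (adjusted p = 5.11e-05). Il11ra1 has near-identical copies in the mouse genome, of which Il11ra2 is listed at 0, and shares exon bases with Ccl27a on the other strand, so its count is uncertain.

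Lifr, the binding chain for Lif, had 24, 17.2 and 16.3 CPM (Ctl MSC 1 to 3) against 32.5, 31.6 and 52.7 CPM (MSC-TPr 1 to 3). The groups did not overlap, with MSC-TPr 3 the highest. The log2 fold change was 1.02 over all 6 libraries (95% interval 0.35 to 1.69, edgeR adjusted p = 0.187; DESeq2 adjusted p = 0.0309) and 1.34 over the 4. Il6st, the gp130 chain itself, had 386, 316 and 300 CPM against 197, 174 and 294 CPM, so MSC-TPr 3 came near to Ctl MSC 3. It gave −0.59 over all 6 libraries (edgeR adjusted p = 0.316) and −0.39 over the 4.

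Il6ra had 7.49, 8.01 and 7.88 CPM (Ctl MSC 1 to 3) against 9.24, 8.51 and 14 CPM (MSC-TPr 1 to 3), with a log2 fold change of 0.44 (edgeR adjusted p = 0.467). Csf2ra, the binding chain for GM-CSF, had 1.63, 2.03 and 1.71 CPM against 0.83, 0.887 and 0.881 CPM, a log2 fold change of −1.04 (edgeR adjusted p = 0.201) over all 6 libraries and −1.07 over the 4. Csf1r, the macrophage receptor of Csf1, had 0.725, 0.0534 and 0.0551 CPM (Ctl MSC 1 to 3) against 0, 0.769 and 0.834 CPM (MSC-TPr 1 to 3). These came from 12, 1 and 1 reads against 0, 13 and 18. It passed the filter through Ctl MSC 1, MSC-TPr 2 and MSC-TPr 3 alone, so no pattern over the libraries is read from it. Of the haematopoietic markers, Ptprc and Itgam stayed at or near 0 in all libraries. Cd68 had 1.63, 9.66 and 7.39 CPM (Ctl MSC 1 to 3) against 14.2, 1.66 and 0.788 CPM (MSC-TPr 1 to 3). Exons of Il6ra and Csf1r overlap those of Gm42809 and Hmgxb3 on the opposite strand, so their counts are uncertain too.

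**Figure D5:**
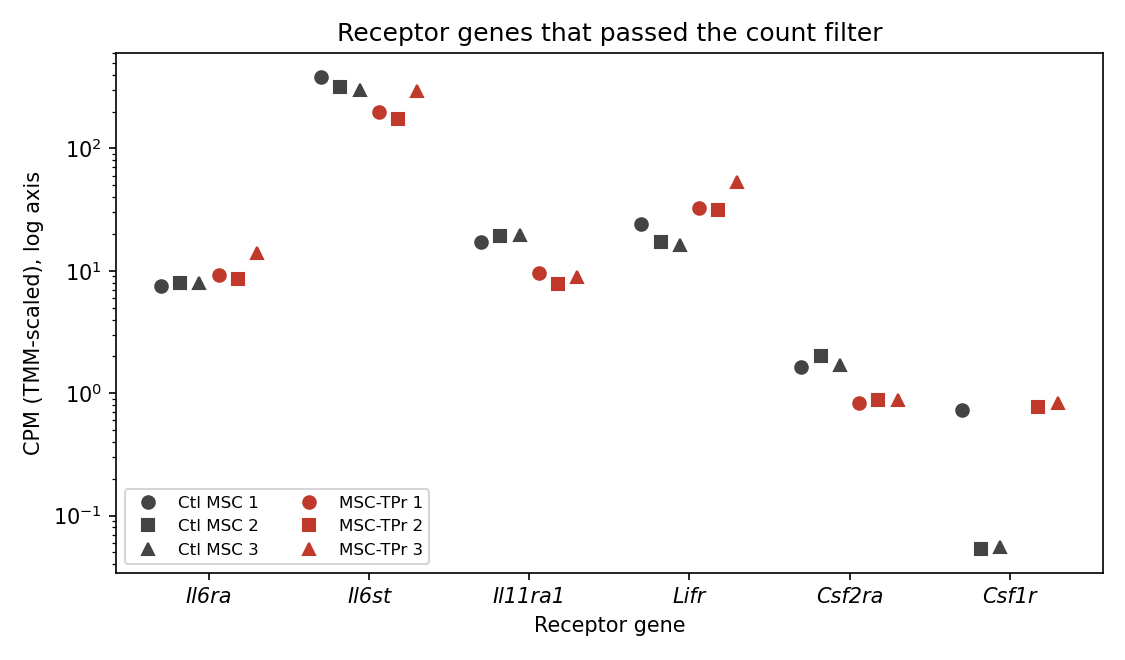
Level in CPM on a log axis of the 6 receptor genes that passed the filter (black, Ctl MSC; red, MSC-TPr; the symbol gives the library number). The labels do not overlap for Il6ra, Il6st, Il11ra1, Lifr and Csf2ra; MSC-TPr 1, at 0 for Csf1r, is not drawn.

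Other factors that marrow stroma offers to blood cells were examined as a list of 19 genes, of which 13 passed the filter. None was called over all 6 libraries, with a median log2 fold change of 0.34, and the groups stood apart for 3, Jag1 (higher) and Nov and Ptn (lower), a share near the 22.6% of all genes. Jag1, a Notch ligand, had 7, 13.5 and 13.2 CPM (Ctl MSC 1 to 3) against 24.1, 25.5 and 24.6 CPM (MSC-TPr 1 to 3), a log2 fold change of 1.14 (edgeR adjusted p = 0.17; DESeq2 adjusted p = 0.0118). Nov, a secreted matricellular protein, had 139, 140 and 147 CPM against 92.2, 52.4 and 47.2 CPM, a log2 fold change of −1.15 (edgeR adjusted p = 0.152; DESeq2 adjusted p = 0.014). Ptn, pleiotrophin, was by far the highest in Ctl MSC 1, with 184, 10.2 and 11 CPM against 0, 3.84 and 3.8 CPM; its log2 fold change was −4.74 over all 6 libraries (edgeR adjusted p = 0.266) and −1.47 over the 4. Cxcl12, the chemokine that holds stem cells in the niche, was named after its values were seen: it had 1408, 336 and 331 CPM (Ctl MSC 1 to 3) against 67.8, 352 and 488 CPM (MSC-TPr 1 to 3), with overlapping groups. Of 12 genes that identify niche stroma, all tested, none was called over all 6 libraries (median −0.59), where 0.426% of all genes were. Grem1 was lower in every MSC-TPr library (−0.92, edgeR adjusted p = 0.242), as were 12.1% of all genes. Runx2 was higher in every MSC-TPr library (0.28, edgeR adjusted p = 0.482), as were 10.6% of all genes.

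The signalling chain below the receptors showed no call over all 6 libraries among 14 JAK-STAT genes, all of them tested (median log2 fold change −0.12). Over all genes tested, 0.426% were called. Socs2, a feedback inhibitor, was the only one of the 14 with groups apart, where 22.6% of all genes tested were. It had 17, 53.5 and 55.7 CPM (Ctl MSC 1 to 3) against 85.9, 106 and 82 CPM (MSC-TPr 1 to 3) (log2 fold change 1.12, edgeR adjusted p = 0.302). Among genes named after their values were seen, Socs3, the feedback inhibitor of gp130, had a log2 fold change of −0.01 (edgeR adjusted p = 0.985), and Stat3 one of −0.27 (edgeR adjusted p = 0.697).

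Of 21 inducers of cytokine genes 18 passed the filter, and none was called over all 6 libraries (median −0.12). Il1a, Il1b and Tnf, the cytokines that classically induce Il6, Lif and the colony stimulating factors, were at or below 0.118 CPM in every library. Groups stood apart for 4 of the 18, a share near the 22.6% of all genes: Fosl1 (20.2 to 25.2 CPM in Ctl MSC, 27.5 to 57.8 CPM in MSC-TPr; log2 fold change 0.87, edgeR adjusted p = 0.246) and Junb (0.28, adjusted p = 0.388) were higher in MSC-TPr, and Fos (−1.42, adjusted p = 0.234) and Cebpd (−1.18, adjusted p = 0.216) lower. The NF-kappaB genes Nfkb1, Nfkb2, Rela and Relb had log2 fold changes between −0.16 and 0.26. Rel, of the same family, had 0.40 over all 6 libraries (edgeR adjusted p = 0.556) and 0.75 over the 4 numbered 2 and 3.

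All 8 regulators of cytokine mRNA decay or stability were tested and none was called (median 0.24), where 0.426% of all genes were. Groups stood apart for 2 that were higher and 1 that was lower in MSC-TPr. Over all genes tested, 10.6% were apart and higher and 12.1% apart and lower, and nothing particular to these 8 is read from the counts. Zfp36l2, which binds AU-rich elements, had 215, 199 and 194 CPM (Ctl MSC 1 to 3) against 250, 329 and 386 CPM (MSC-TPr 1 to 3), a log2 fold change of 0.67 (edgeR adjusted p = 0.205) over all 6 libraries and 0.86 over the 4. Elavl1, a stabilising factor, was also higher in every MSC-TPr library (0.36, adjusted p = 0.352), and Zfp36, the decay factor tristetraprolin, lower in every one (−0.34, adjusted p = 0.434).

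The genes whose profile over the 6 libraries was most like that of each cytokine gene were found by Pearson's r of log2(CPM + 0.5) among the 11974 genes tested. For Kitl these were Aldh2 (r = 0.997) and Cbx2 (0.996), for Csf1 Zfp623 (0.997) and Lrrc27 (0.993), and for Flt3l Ppef1 (0.999) and H2-M10.1 (0.996). For Lif they were Colec10 and Cmah (0.994 each), for Il6 Dazap1 (0.995) and Gm10653 (0.993), and for Il7 Stac (0.998) and Ccdc85b (0.992). Stac spanned 0.0551 to 1.21 CPM, its lowest library being under the limit of 3 reads, so its match rests on low counts. These correlations describe 6 libraries that form 2 sets, were chosen as the highest among 11974 genes, and carry no p. Among the cytokine genes themselves, Kitl and Flt3l (r = 0.87), Il6 and Lif (0.87) and Il6 and Il7 (0.81) were most alike, and Il7 and Flt3l (−0.94) least.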

How the data were processed

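Polyadenylated RNA of 3 Ctl MSC and 3 MSC-TPr libraries was sequenced from stranded libraries. The authors aligned reads to mm10 and deposited raw counts per gene from Htseq-count; the submitters' processing notes name CASAVA 1.8.2, Trimmomatic 0.35 and TopHat2 2.1.0. Rows that name no gene (13.8% to 20.8% of listed reads) were left out. The differential test was the quasi-likelihood test of edgeR 4.0.16 under R 4.3.3, after filterByExpr and TMM scaling, with group alone in the model and Benjamini-Hochberg adjustment across genes. It was first tested on simulated data in which libraries differed by label and depth only. That trial does not cover the 2 sets of libraries that cross the labels here. Calls needed an adjusted p below 0.05 together with an absolute log2 difference of 0.5 or more. DESeq2 1.42.0 was an alternative, as were other filters and scaling, a replicate block, a cell division covariate and leaving out libraries. Coordinates, exon lengths and 3′ untranslated regions came from GENCODE M21 (mm10), promoters from RefSeq, which held 8 of the 10 genes. The SE and intervals of a log2 fold change derive from F and its degrees of freedom. The genes and lists were chosen with earlier results of these data known, and the genes named from the lists are those called or, otherwise, up to 4 per list with the largest log2 fold change among genes whose groups did not overlap, each tested receptor, and the 2 genes most correlated with each tested cytokine gene; Cxcl12, Socs3, Stat3, Il1a, Il1b, Tnf and the NF-kappaB genes were named outside that rule. The result for 1 receptor is not reported here.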

Additional observations from a re-analysis of the deposited data

How the results depend on the processing

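Among the 10 cytokine genes, 0 were called under RLE scaling, no filter, at least 10 counts in every library, DESeq2, the replicate block, the cell division covariate and each library left out in turn, and 5 with both libraries numbered 1 left out, where label and cell division coincide (log2 fold changes −1.00 for Kitl, 1.92 for Il6, 1.42 for Il7, 1.63 for Lif and −0.89 for Flt3l). The sign of Il7 turned with the covariate (−0.30), without Ctl MSC 2 (−0.13), without Ctl MSC 3 (−0.34) and without MSC-TPr 3 (−0.24), in a range of −0.34 to 1.10 over the libraries left out, and that of Csf1 with the covariate (0.0041). The other ranges were −0.84 to −0.41 for Kitl, −0.35 to −0.02 for Csf1, 0.63 to 1.61 for Il6, 0.81 to 1.55 for Lif and −0.63 to −0.14 for Flt3l. Over all genes, 51 calls (3 higher, 48 lower) became 31 with at least 10 counts in every library, 683 with DESeq2 (244 higher, 439 lower), 1439 with the covariate, 0 with the replicate block (776 at an unadjusted p under 0.05), 4854 without both libraries numbered 1, and 0 to 108 with each library left out (0 without Ctl MSC 2, Ctl MSC 3 or MSC-TPr 3, where 928, 925 and 1547 genes had an unadjusted p under 0.05, 1 without MSC-TPr 2 and 108 without Ctl MSC 1). In the pathway lists, 0 calls became 4 with DESeq2, 12 with the covariate, 27 without both libraries numbered 1 and 0 to 1 with each library left out (Nov without MSC-TPr 1). Of all genes tested, 5.31% were called with DESeq2, 12.0% with the covariate and 40.0% without both libraries numbered 1. Nothing particular to the lists is read from their counts. The cause of the changes in the number of calls was not tested. After subtraction of group means, libraries sharing a number correlated at −0.77, −0.62 and −0.62 across genes. Ctl MSC 1 and MSC-TPr 1 lay apart from their groups in opposite directions, which weighs on each of these values. Whether the numbers pair the libraries was therefore not settled. The replicate block gave log2 fold changes of −0.62 for Kitl and 0.94 for Lif. Low counts limit Il6, Il11, Thpo, Csf2 and Csf3.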
